A study of Mus musculus with 282 samples.

Results

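Recombinant inbred strains made from the same pair of parents in both directions of the cross were compared in the hypothalamus. The AXB strains come from A/J females mated to C57BL/6J males and the BXA strains from C57BL/6J females mated to A/J males, which is the usual reading of these names. Each strain was inbred from such a cross until its chromosomes were a fixed mosaic of both parents. Mitochondria pass through the mother and the Y chromosome through the father, so AXB strains carry A/J mitochondria with a C57BL/6J Y chromosome, and BXA strains carry the reverse. Mitochondrial and Y origin therefore cannot be told apart here, and neither can be told apart from any autosomal stretch that happens to be fixed for different parents in the 2 sets of strains.

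The members were all strains labelled AXB- or BXA-, every one of the substrain suffix PgnJ, which is left out below. They were 10 AXB strains with 25 mice and 8 BXA strains with 22 mice, of 99 strains and 282 mice in the series. All were male, had been fed a high fat diet, and gave 1 unstranded RNA library each from the whole hypothalamus, and the labels give no age. In 12 of the strains 3 mice were sequenced, in 5 strains 2 mice and in AXB-12 1 mouse. The parents, 3 A/J and 3 C57BL/6J mice on the same diet, served as reference levels. A mouse named AXB8 in its title but labelled as strain AXB-6 was left out. Expression is given in FPKM (fragments per kilobase of transcript, scaled to the fragments mapped), the mean of the mice is the value of a strain, and the strain is the unit of every test. A difference is the AXB mean minus the BXA mean of log2(FPKM + 1), so that a negative value marks a higher level in BXA strains.

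The contrast covered 12073 autosomal genes of 14079 gene rows. Genes encoded by mitochondrial DNA were not analysed here, since 0 gene rows lay on the mitochondrial chromosome, and what follows concerns nuclear genes. The products of 2 genomes meet in the mitochondrion: the mitochondrial DNA encodes a small set of core subunits of the respiratory chain together with the RNAs that translate them, while all other subunits, the mitochondrial ribosomal proteins and the elongation factors are made from nuclear genes and imported.

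Strain labels were checked with the 185 genes whose level differed between the parents by at least 1 on the log2 scale. Of the 46 mice whose strain had another mouse, 44 had their best matching mouse in their own strain, and the other 2 were AXB-19 mice that matched an AXB-20 mouse best. AXB-18, AXB-19 and AXB-20 were close to each other, lying on the same parental side for 93.0% to 93.5% of these genes, whereas the 150 other pairs of strains shared 35.1% to 70.3%. These 3 strains are thus not independent of each other, although each counted as 1 strain below. Markers of neighbouring tissue varied between libraries in both crosses. The summed level of 6 anterior pituitary markers ran from 23.4 to 8041 FPKM over AXB strains and from 2.27 to 2398 FPKM over BXA strains, and that of 5 choroid plexus markers from 12.6 to 573.8 and from 11.4 to 559.3 FPKM, so the crosses overlapped in both.

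No gene passed the threshold of 0.05 between AXB and BXA strains (limma, Benjamini-Hochberg adjustment over 12073 genes; percent called 0). The lowest adjusted p was 0.205. At an unadjusted p under 0.05 there were 516 genes, or 4.27% of those tested, of which 226 (1.87%) had the higher mean in AXB and 290 (2.4%) in BXA. The exact permutation test over the 43758 possible splits of the strains gave 492 genes (4.08%) at an unadjusted p under 0.05. It called 0 genes after adjustment, but the smallest p it can give is 2.29e-05. Adjusted over 12073 genes, a single gene could not pass even at that p, so this 0 adds no support to that of limma. At an unadjusted p under 0.01 there were 147 genes (1.22%), 54 (0.447%) with the higher mean in AXB and 93 (0.77%) in BXA. The mean was higher in BXA for 51.2% of all genes and higher in AXB for 48.8%. The median difference over all genes was -0.0016, and 90% of genes lay between -0.13 and 0.12. Direction of the cross took up a median of 2.45% of the variance over strain means. A split of the strains at random also takes up a share above 0, and that share was not computed, so the value is a description only. The 95% confidence interval of a difference extended a median of 0.12 to either side.

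**Figure D1:**
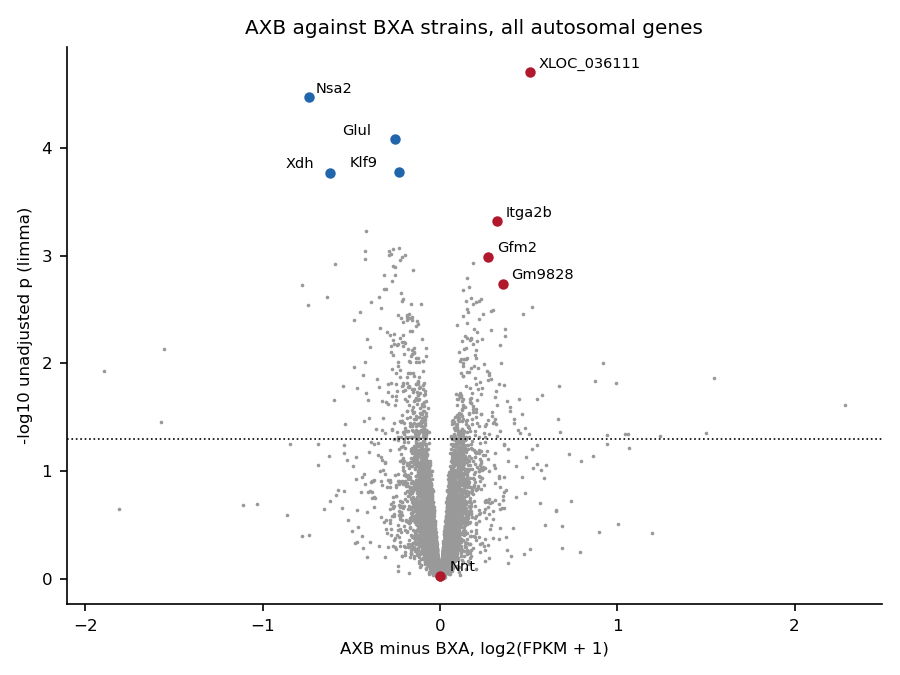
Difference between AXB and BXA strains (x axis, log2(FPKM + 1), AXB minus BXA) against the unadjusted p of limma (y axis, -log10) for 12073 autosomal genes, with the dotted line at an unadjusted p of 0.05. Nsa2 and the unnamed locus XLOC_036111 lie at the top, none of the points passed adjustment, and Nnt lies at the origin.

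The lowest p of a named gene belonged to Nsa2, which encodes a factor of ribosome assembly in the nucleolus. Its strain means were 3.05, 3.39 and 7.34 FPKM (lowest, median and highest) in AXB and 3.89, 7.06 and 8.99 FPKM in BXA. The A/J mice had 3.84 ± 1.08 FPKM (SD, n = 3) and the C57BL/6J mice 7.55 ± 0.45 FPKM (SD, n = 3). Levels thus formed 2 bands at the parental values, with 9 of 10 AXB strains and 1 of 8 BXA strains nearer A/J. The exceptions were AXB-8 with 7.34 ± 0.15 FPKM (SD, n = 2) and BXA-14 with 3.89 ± 0.95 FPKM (SD, n = 3). The difference was -0.74 (SE 0.14, limma adjusted p = 0.205, unadjusted p = 3.39e-05). Without AXB-8 it became -0.83 with an adjusted p of 0.0021, and without BXA-14 it became -0.84 with an adjusted p of 0.0187. These strains are the exceptions themselves, so the lower p without them adds no support for a difference between the crosses. AXB-8 and BXA-14 were also the strains with the highest summed pituitary markers of their crosses, 8041 and 2398 FPKM. With the 2 AXB and 2 BXA mice above 1000 FPKM of these markers left out, the difference was -0.76 for Nsa2 (limma adjusted p = 0.206).

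Gfm2, which encodes the mitochondrial elongation factor G2 that recycles ribosomes at the end of mitochondrial translation, starts next to Nsa2 on the opposite strand and had the opposite direction. Strain means were 9.92, 14.3 and 16.1 FPKM in AXB and 10.2, 11.2 and 13.5 FPKM in BXA, against 14.6 ± 1.54 in A/J and 10.8 ± 0.71 in C57BL/6J (SD, n = 3 each). AXB-8 was again the exception with 9.92 ± 0.21 FPKM (SD, n = 2), and 2 of 8 BXA strains lay nearer A/J, BXA-14 with 13.5 ± 0.99 FPKM and BXA-11 with 12.6 ± 0.98 FPKM (SD, n = 3 each). The difference of Gfm2 was 0.27 (SE 0.07, limma adjusted p = 0.697) and had an adjusted p of 0.0203 without AXB-8, again the exception. The assembly places Nsa2 at chr13:97126502-97137926 on the minus strand and Gfm2 at chr13:97137977-97181195 on the plus strand of mm10. RefSeq starts on GRCm38.p6, the same coordinates, leave 10 bases between the genes. In this assembly Nsa2 overlaps Fam169a on the opposite strand, and in unstranded libraries reads of overlapping genes cannot be told apart. The stretch chr13:97137917-97137946 is shown on the plus strand because it is the only sequence between both starts, with the bases between them in capitals and the first 10 bases of each transcript in lower case (Nsa2 reads leftward, Gfm2 rightward).
Nsa2 and Gfm2 starts: cgtgacgtctTTCCGTTCCTaggcagatgg

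Further along the same chromosome, Gm9828, a predicted gene at chr13:98317069-98322035, showed the same exceptions. Its strain means were 1.73, 2.90 and 3.41 FPKM in AXB and 1.54, 1.82 and 3.43 FPKM in BXA, with AXB-8 lowest of its cross and BXA-14 highest of its own. The difference was 0.35 (SE 0.10, limma adjusted p = 0.697). Of the 56 genes that start within 5 Mb of Nsa2, 6 had an unadjusted p under 0.01, where 1.22% of all genes did. Beside these 3 genes they were Serinc5, Arsb, which encodes the lysosomal arylsulfatase B, and Mrps27, a protein of the small subunit of the mitochondrial ribosome. The window was set around Nsa2 because of its low p and counts Nsa2 itself, so the 6 are a description only. Arsb had 19.1 to 28.6 FPKM in AXB, with AXB-8 again at the far end, and 21.8 to 29.2 FPKM in BXA, with BXA-12 and BXA-14 lowest. Genes this close in recombinant inbred strains often lie on 1 parental segment and were not taken as separate observations, but no genotypes were used and the exceptions were not the same in each gene. For Mrps27, 6 of 10 AXB strains and 0 of 8 BXA strains lay nearer A/J. Its parental difference had a limma adjusted p of 0.501, however. The estimated share of its variance within crosses that lay between strains was -2.16%, so these sides are a description only. Chromosome 13 held 10 of the 147 genes with an unadjusted p under 0.01, the 6 of the window around Nsa2 among them. That is 2.16% of its 464 genes, and the other autosomes lay between 0.488% and 1.95%.

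**Figure D2:**
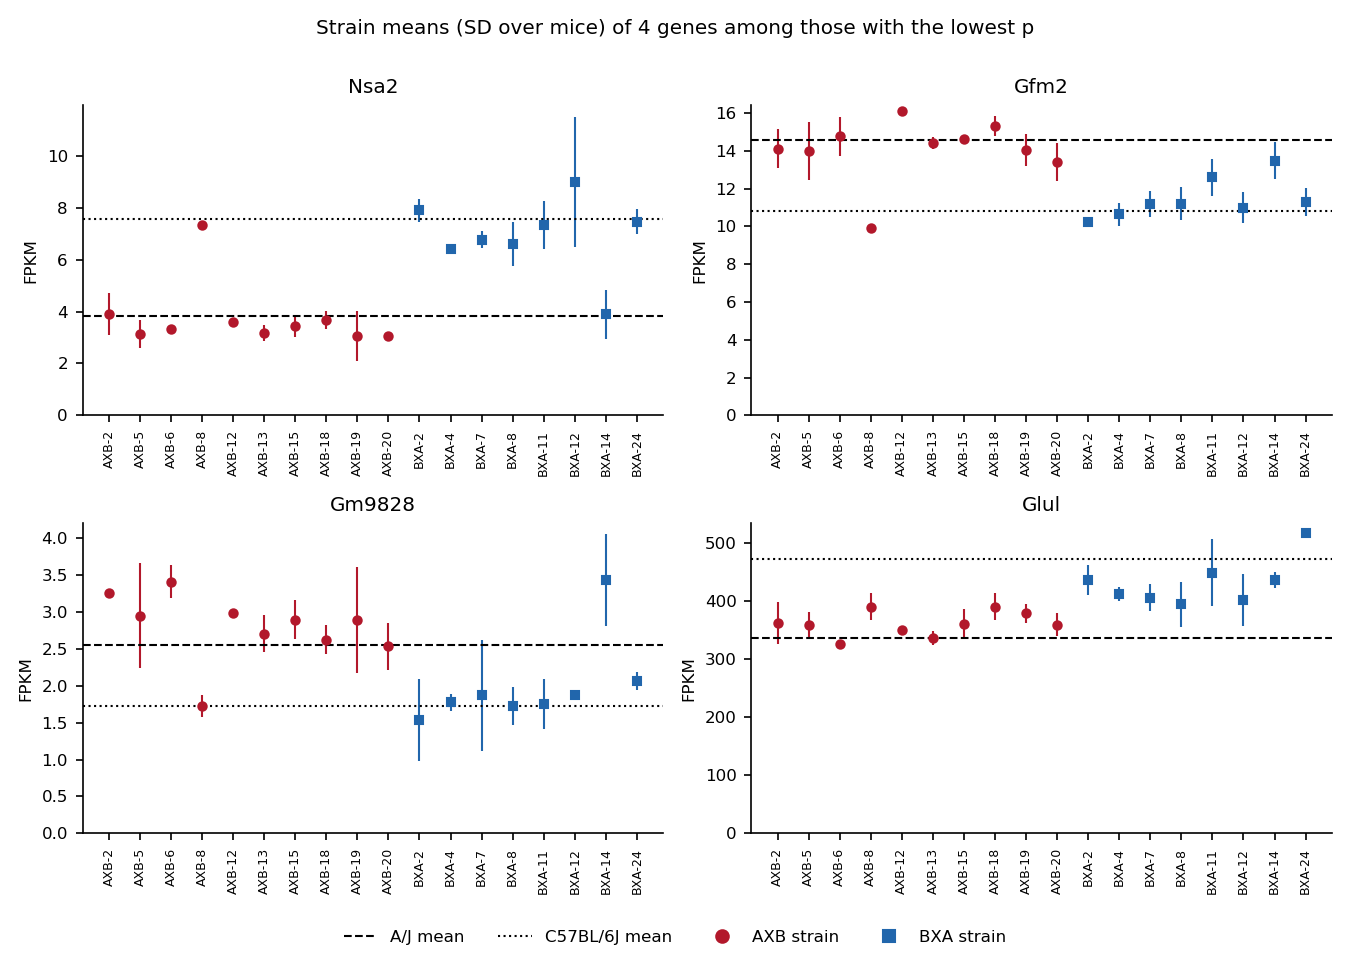
Mean FPKM of each of 18 strains for Nsa2, Gfm2, Gm9828 and Glul, with the SD over the mice of a strain as bars (AXB-12 has 1 mouse and no bar) and the parental means as lines. For the first 3 genes AXB-8 and BXA-14 sit with the other cross (for Gfm2 BXA-11 also lies nearer A/J), and for Glul the crosses do not overlap.

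Glul (chr1:153896985-154080789), which encodes glutamine synthetase, the enzyme with which astrocytes turn glutamate into glutamine, was the only named gene by the rule used here whose crosses did not overlap. Its strain means were 325.7, 360.1 and 390.6 FPKM in AXB and 394.2, 424.2 and 517.3 FPKM in BXA. All AXB strains lay below all BXA strains, although AXB-8 and BXA-8 at the border differed by less than the SD over their mice, 22.8 and 38.3 FPKM. Of all genes, 2 (0.0166%) had strain means that did not overlap on the log2 scale, and the other was Rundc1, singled out after its values were seen, with a difference of only -0.08. The Glul difference was -0.25 (SE 0.05, limma adjusted p = 0.333, unadjusted p = 8.26e-05, exact permutation p = 4.57e-05). Both tests counted the closely alike AXB-18, AXB-19 and AXB-20 as separate strains, so these p-values may be too low. Over all alternatives, 1 of them with these strains as 1 unit, the difference stayed between -0.27 and -0.21. A/J had 336.2 ± 14.8 and C57BL/6J 472.5 ± 19.02 FPKM (SD, n = 3 each), with 10 of 10 AXB strains and 1 of 8 BXA strains nearer A/J.

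Of the other 8 named genes with the lowest p among those higher in BXA, Klf9 and Klf15 encode zinc finger transcription factors induced by glucocorticoids, and Bcl6 encodes a transcriptional repressor. Klf9 had strain means of 33.0, 35.5 and 41.1 FPKM in AXB and 38.6, 41.1 and 48.7 FPKM in BXA, a difference of -0.23 (SE 0.05, limma adjusted p = 0.408). The parents did not bracket it, with 38.7 FPKM in A/J and 35.2 FPKM in C57BL/6J. Xdh, which encodes xanthine dehydrogenase, the last enzyme of purine breakdown, had 0.697, 1.23 and 2.29 FPKM in AXB and 1.56, 2.47 and 3.91 FPKM in BXA, a difference of -0.62 (SE 0.13, limma adjusted p = 0.408). Mpeg1 and Selplg, genes of macrophages and other leukocytes that microglia express, had differences of -0.41 and -0.42. The differences of Spata33, Klf15, Igsf11 and Bcl6 ran from -0.29 to -0.23, and each of these 6 genes had an adjusted p of 0.697.

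The 10 named genes with the lowest p and a higher mean in AXB, which leave out unnamed loci, had differences between 0.13 and 0.35. Itga2b, the platelet integrin subunit alpha IIb, had 2.99, 3.47 and 4.78 FPKM in AXB and 2.21, 2.78 and 3.35 FPKM in BXA, a difference of 0.32 (SE 0.08, limma adjusted p = 0.697). Exosc8, a subunit of the RNA exosome, had a difference of 0.16, and Tyro3, a receptor tyrosine kinase, one of 0.22. The differences of Pdcd2l, Zfp189, Nabp1, 4933428G20Rik and Gng11 lay between 0.13 and 0.23, and in each of these 8 genes the strain means of the crosses overlapped. Of the variance within crosses, the estimated share between strains ran over these 8 genes from -31.4% in Exosc8 to 21.3% in Tyro3. The estimate was also negative in Itga2b, Pdcd2l, Zfp189 and Gng11, so no strain effect was detected within crosses for them or for Exosc8.

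The lowest p of all genes belonged to an unnamed locus, XLOC_036111 at chr8:91688179-91689110, named here after its values were seen. Its strain means were 1.27, 1.70 and 2.04 FPKM in AXB and 0.525, 0.796 and 1.66 FPKM in BXA, with 1.77 FPKM in A/J and 0.882 FPKM in C57BL/6J. All 10 AXB strains and 1 of 8 BXA strains, BXA-11, lay nearer A/J, although the parental difference itself had an adjusted p of 0.202. The difference was 0.51 (SE 0.09, limma adjusted p = 0.205), and without BXA-11, the exception, the adjusted p was 0.0034. The mice of a strain spread widely at this low level, and only 4.59% of the variance within crosses lay between strains.

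Differences of the largest size were seen mostly in genes that also differ between the parents. A size of at least 1 on the log2 scale was reached by 15 genes, 9 with the higher mean in AXB and 6 in BXA, of which 7 had no name. Between the parents 12 of the 15 had an adjusted p under 0.05, where 7.7% of all genes did, while between the crosses the lowest adjusted p was 0.774. The 15 were picked for a size that needs strains far apart, so the 12 are a description only. Gm5506, singled out with the next genes after their values were seen, had 0, 23.3 and 29.3 FPKM in AXB and 0, 0.0099 and 28.2 FPKM in BXA, against 21.8 FPKM in A/J and 0 in C57BL/6J. Both crosses thus held strains at either parental level, 6 of 10 AXB and 1 of 8 BXA strains nearer A/J, and the difference was 2.28 with an SE of 0.93. Tekt5, a protein of sperm flagella, was 8.41 FPKM in C57BL/6J and 0.497 FPKM in A/J, yet had the higher mean in AXB, 7.03 against 3.69 FPKM in BXA. Prss41, a serine protease gene, had 3.57 FPKM in AXB and 1.42 FPKM in BXA.

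The nuclear subunits of oxidative phosphorylation had differences centred near 0 between the crosses. Of 75 loci measured, 0 passed the threshold (limma, adjusted over all genes) and 0 had an unadjusted p under 0.05 in either direction, against 4.27% of all genes, and 25 had the higher mean in AXB and 50 in BXA. The mean was higher in AXB for 17 of 34 loci of complex I, 1 of 4 of complex II, 4 of 9 of complex III, 0 of 11 of complex IV and 3 of 17 of ATP synthase, where it was for 48.8% of all genes. The median difference was 0.0004 for 34 loci of complex I, -0.01 for 4 of complex II, -0.0039 for 9 of complex III, -0.01 for 11 of complex IV and -0.02 for 17 of ATP synthase, beside -0.0016 over all genes. The 95% confidence interval lay within 0.5 on either side of 0 for all 75. Ndufb10, an accessory subunit of complex I, came nearest to the threshold there with 111.6 ± 4.69 FPKM in AXB and 117.7 ± 7.69 FPKM in BXA (SD over 10 and 8 strains), a difference of -0.07, followed in complex I by Ndufab1, the mitochondrial acyl carrier protein, at 0.10. Atp5l, the g subunit of ATP synthase, had the largest difference of these loci, 0.20 with an SE of 0.10. Uqcrc2 and Cyc1 of complex III, Sdha and Sdhc of complex II and Atp5k of ATP synthase had differences between -0.07 and 0.06.

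Cox7a2l, which encodes a factor that joins complexes III and IV into supercomplexes and is known to vary between inbred strains, had both parental levels in both crosses. Its strain mean was 58.7 ± 10.5 FPKM in AXB and 64.7 ± 13.9 FPKM in BXA (SD over strains), a difference of -0.12 (SE 0.13, limma adjusted p = 0.999). A/J had 46.0 FPKM and C57BL/6J 72.7 FPKM, and 5 of 10 AXB strains and 3 of 8 BXA strains lay nearer A/J. Cox6b1 had a difference of -0.05.

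Genes that express and maintain mitochondrial DNA and its products gave similar results. Of 24 loci, 1 had an unadjusted p under 0.05 in each direction, where 1.87% of all genes did with the higher mean in AXB and 2.4% in BXA, and none passed adjustment. Tfb1m, which modifies the small ribosomal RNA of mitochondria, had 4.63 ± 0.43 FPKM in AXB and 3.99 ± 0.55 FPKM in BXA (SD over strains), a difference of 0.18 (SE 0.06, limma adjusted p = 0.873). The locus of Fastkd5, a protein of mitochondrial RNA processing, is joined with Ubox5 in the assembly and had a difference of -0.10. Of 76 loci of mitochondrial ribosomal proteins, 28 had the higher mean in AXB and 48 in BXA, where 48.8% and 51.2% of all genes did. Their median difference was -0.02. In the assembly 15 of the 76 are joined with other genes, so their levels are not of the ribosomal protein alone. The locus of Mrps26, joined with Oxt and Ptpra, also counts among the neuropeptide loci below. Mrps27 was the 1 locus of this list with an unadjusted p under 0.05 (10.9 ± 0.70 FPKM in AXB, 12.1 ± 0.72 FPKM in BXA, SD over strains; difference -0.14, SE 0.04, limma adjusted p = 0.727), and it is 1 of the genes near Nsa2 described above. Mrps15, joined with Oscp1, had a difference of -0.10. The medians of 23 loci of mitochondrial chaperones, proteases and stress response and of 15 antioxidant and redox genes were -0.0014 and -0.0035, with none at an unadjusted p under 0.05. Their members with the lowest p were Afg3l1, a subunit of a mitochondrial protease, at 0.13, Psat1 of serine synthesis at -0.10, and Glrx2 and Idh2, the mitochondrial glutaredoxin and isocitrate dehydrogenase, at -0.13 and -0.10.

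**Figure D3:**
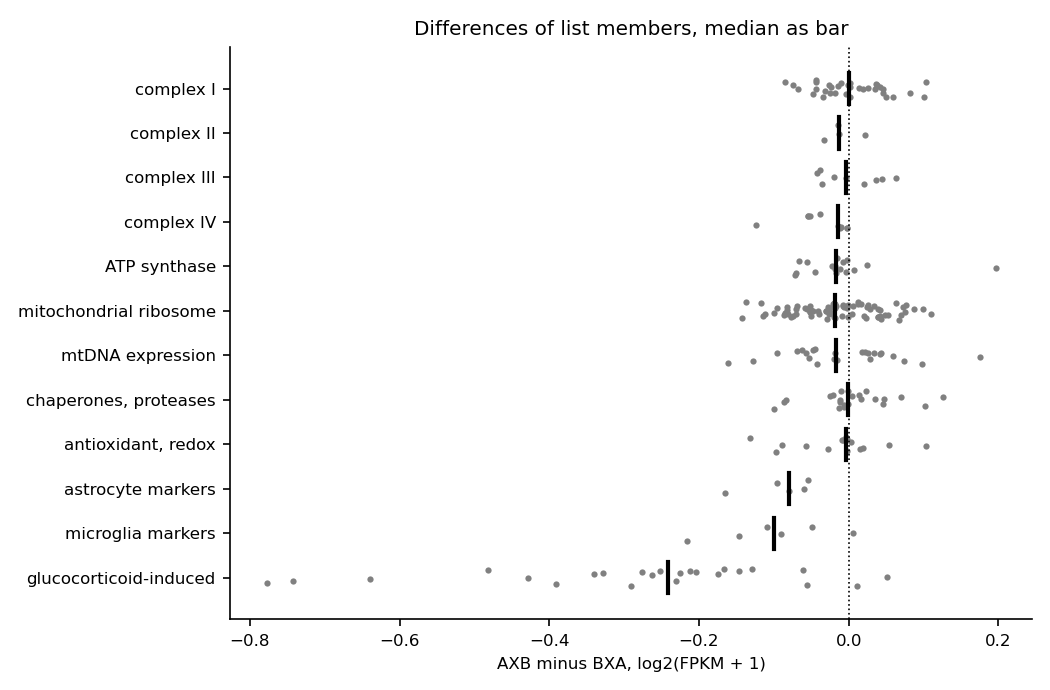
Difference between AXB and BXA strains (x axis, log2(FPKM + 1), AXB minus BXA) of each member of 12 gene lists, with the median of a list as a black bar. The mitochondrial lists are centred near 0, and members of the list of glucocorticoid-induced genes, written after values were seen, reach -0.78.

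Klf9, Klf15 and Glul belong to genes that glucocorticoids induce in brain, and after this was seen a list of 25 such genes was written and described. Of 24 loci measured, 22 had the higher mean in BXA and 17 had an unadjusted p under 0.05 in that direction, where 2.4% of all genes did, and 0 passed the threshold over all genes. Because these genes prompted the list, the counts are a description only. Sgk1, a kinase of ion transport, had strain means of 9.78, 14.7 and 29.8 FPKM in AXB and 13.5, 31.1 and 43.0 FPKM in BXA, a difference of -0.74 (SE 0.22, limma adjusted p = 0.697). The mice of a strain differed widely in Sgk1, with SDs of 29.1 FPKM in AXB-19 and 24.2 FPKM in BXA-11 (n = 3 each). Plin4, a coat protein of lipid droplets, had 0.342, 0.562 and 1.65 FPKM in AXB and 0.508, 1.67 and 5.80 FPKM in BXA, a difference of -0.78 (SE 0.22). Hif3a had a difference of -0.64, Zbtb16 one of -0.48 and Fkbp5, which holds the glucocorticoid receptor in its inactive complex, one of -0.29. BXA-12 stood apart from its cross, with the lowest Sgk1, Plin4, Hif3a, Zbtb16 and Fkbp5 of the BXA strains. Dusp1, Angptl4, Cebpb and Pdk4 of the same list had differences between -0.06 and 0.05. The median of the list was -0.24 and stayed between -0.28 and -0.18 over all alternatives, but the number at an unadjusted p under 0.05 fell to 10 without replicate 1 of each strain and to 10 without mice rich in choroid plexus markers. The parents differed from gene to gene. Sgk1 had 17.7 ± 5.48 FPKM in A/J and 13.4 ± 3.46 FPKM in C57BL/6J (SD, n = 3 each), whereas Glul, as given above, and Mt2, a metallothionein gene, with 133.8 FPKM in A/J and 231.2 FPKM in C57BL/6J (limma adjusted p = 0.0223), were higher in C57BL/6J.

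Markers of cell types gave values beside these. All 5 astrocyte markers had the higher mean in BXA, where 51.2% of all genes did, with a median difference of -0.08 and 0 at an unadjusted p under 0.05. Their summed level was 347.4 to 413.4 FPKM over AXB strains and 359.0 to 428.6 FPKM over BXA strains. Of 6 microglia markers, 5 had the higher mean in BXA, with a median of -0.10. C1qa, a subunit of complement C1q, had a difference of -0.22 (SE 0.09, limma adjusted p = 0.999, unadjusted p = 0.0303). It was the 1 microglia marker with an unadjusted p under 0.05, where 2.4% of all genes had one with the higher mean in BXA. The summed level of the 6 was 133.7 to 164.5 FPKM in AXB and 146.3 to 171.1 FPKM in BXA. Oligodendrocyte markers had a median of 0.10, endothelial markers of -0.06, thalamus markers of -0.03, blood genes of -0.07, choroid plexus markers of -0.16 and anterior pituitary markers of 0.21, and no member of these lists had an unadjusted p under 0.05. A single direction was thus not particular to astrocytes. All 5 choroid plexus and all 5 thalamus markers were also higher in BXA, and all 5 oligodendrocyte and all 6 pituitary markers in AXB. Higher in AXB were 2 of 5 endothelial markers and 1 of 4 blood genes. No marker list had a member at 0 throughout a cross. In a bulk sample fewer cells of a type and less RNA per cell cannot be told apart, and the part of cell composition in the results for Glul, Mpeg1 and Selplg was not tested. Neuropeptides and transcription factors of the hypothalamus were present in both crosses. Of 24 neuropeptide loci 12 had the higher mean in either cross, and Ucn3 (urocortin 3) and Cartpt, the pair with the lowest p, had differences of 0.20 and 0.15. Of 10 transcription factors, Six3 and Nkx2-1 had the lowest p, with differences of -0.09 and 0.10, and none of these lists had a member at an unadjusted p under 0.05.

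To see how far the crosses differed in what they had inherited, strains were scored on the genes that differ between A/J and C57BL/6J. The parents differed in 930 of 12073 genes (limma over the mice of all strains, adjusted p under 0.05; 7.7%), and in 185 (1.53%) by at least 1 on the log2 scale. On these 185 genes AXB strains lay nearer the A/J level in 51.1% ± 8.28 and BXA strains in 44.2% ± 8.32 (SD over 10 and 8 strains). AXB strains ran from 38.4% in AXB-13 to 65.9% in AXB-15 and BXA strains from 35.1% in BXA-24 to 61.1% in BXA-12, so the crosses overlapped. The difference of 6.89 percentage points did not pass the 2-sided exact permutation test (p = 0.1003, n = 18). It was 9.31 points without BXA-12 (exact permutation p = 0.0199) and 8.30 points without AXB-13 (exact permutation p = 0.0476). These are the highest BXA and the lowest AXB strain in this share, so the lower p without them adds no support for a difference. With AXB-18, AXB-19 and AXB-20 as 1 unit the difference was 8.45 points (exact permutation p = 0.0698).

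**Figure D4:**
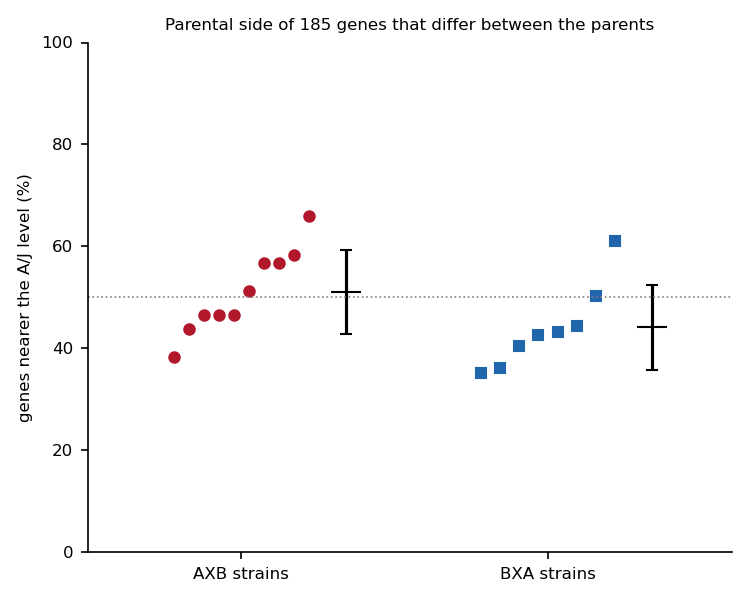
Percent of 185 genes, chosen for a difference between the parents, in which a strain lay nearer A/J than C57BL/6J (y axis), for 10 AXB and 8 BXA strains, with mean and SD in black. The strains of both crosses overlap, with means of 51.1% and 44.2%.

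Low p-values between the crosses were then counted among genes that differ between the parents. Of the 930, 81 (8.71%) had an unadjusted p under 0.05 between AXB and BXA, and in 61 of these the cross that was higher was the one named first by the higher parent (AXB for A/J), as it was in 554 of the 930 (59.6%) whatever their p. Of the other 11143 genes, 435 (3.90%) had such a p. Genes close together in recombinant inbred strains often lie on 1 parental segment and are not separate observations, so these shares are a description only. Of the 930, 3 had shares of strains nearer A/J that differed by 70 percentage points or more between crosses, and these were Glul, Nsa2 and Spata33, with more A/J-like strains in AXB each time. The estimated share of the variance within crosses that lay between strains was 71.5% for Nsa2 and 40.4% for Glul. For Spata33 it was -1.25%, so no strain effect was detected within crosses and the sides of its strains are a description only.

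In 11 of the 930 genes all 18 strains lay on the side of 1 parent, 6 nearer A/J and 5 nearer C57BL/6J. Being nearer a parent is not being at its level, as in Zbed3, with 3.40 to 10.8 FPKM in AXB and 4.22 to 10.6 FPKM in BXA against 3.45 FPKM in A/J and 16.9 FPKM in C57BL/6J. Nnt, which encodes the nicotinamide nucleotide transhydrogenase of the inner mitochondrial membrane and carries a known deletion in C57BL/6J, had 9.75, 10.8 and 12.03 FPKM in AXB and 9.90, 10.8 and 11.8 FPKM in BXA. A/J had 10.6 ± 1.14 and C57BL/6J 6.00 ± 0.05 FPKM (SD, n = 3 each), so no strain of either cross was at the C57BL/6J level. The difference between the crosses was 0.0033 (SE 0.04, limma adjusted p = 0.999). The locus of Gabra2, a subunit of the GABA-A receptor for which C57BL/6J is known to carry a variant that lowers its mRNA, is joined with Gabrg1 and had 46.3 to 59.5 FPKM in AXB and 44.8 to 55.9 FPKM in BXA, against 51.4 in A/J and 34.3 in C57BL/6J. Wdfy1, singled out with the next genes after their values were seen, had 15.8 to 18.003 FPKM in AXB and 16.1 to 17.4 FPKM in BXA, against 17.3 ± 1.09 in A/J and 5.24 ± 0.42 in C57BL/6J (SD, n = 3 each). The imprinted gene Ndn lay likewise on the A/J side, with 314.2 to 376.5 FPKM in AXB and 329.0 to 377.5 FPKM in BXA, against 231.0 ± 41.8 in C57BL/6J.

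Other genes lay on the C57BL/6J side in every strain. Nnat, the imprinted gene of neuronatin, had 234.3 to 401.0 FPKM in AXB and 204.3 to 297.4 FPKM in BXA, against 92.1 ± 14.3 FPKM in A/J and 262.0 ± 34.7 FPKM in C57BL/6J (SD, n = 3 each). Nek1 had 12.8 to 16.8 FPKM in AXB and 12.97 to 16.3 FPKM in BXA, against 10.1 ± 0.69 in A/J and 14.5 ± 1.01 in C57BL/6J. Rab11fip5 also counted here, but its A/J mean of 113.6 FPKM rested on 1 mouse with 283.7 FPKM, while another A/J mouse had 26.6 FPKM. The remaining genes were Hist1h1c and Nfrkb on the C57BL/6J side and Lpcat3 on the A/J side.

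**Figure D5:**
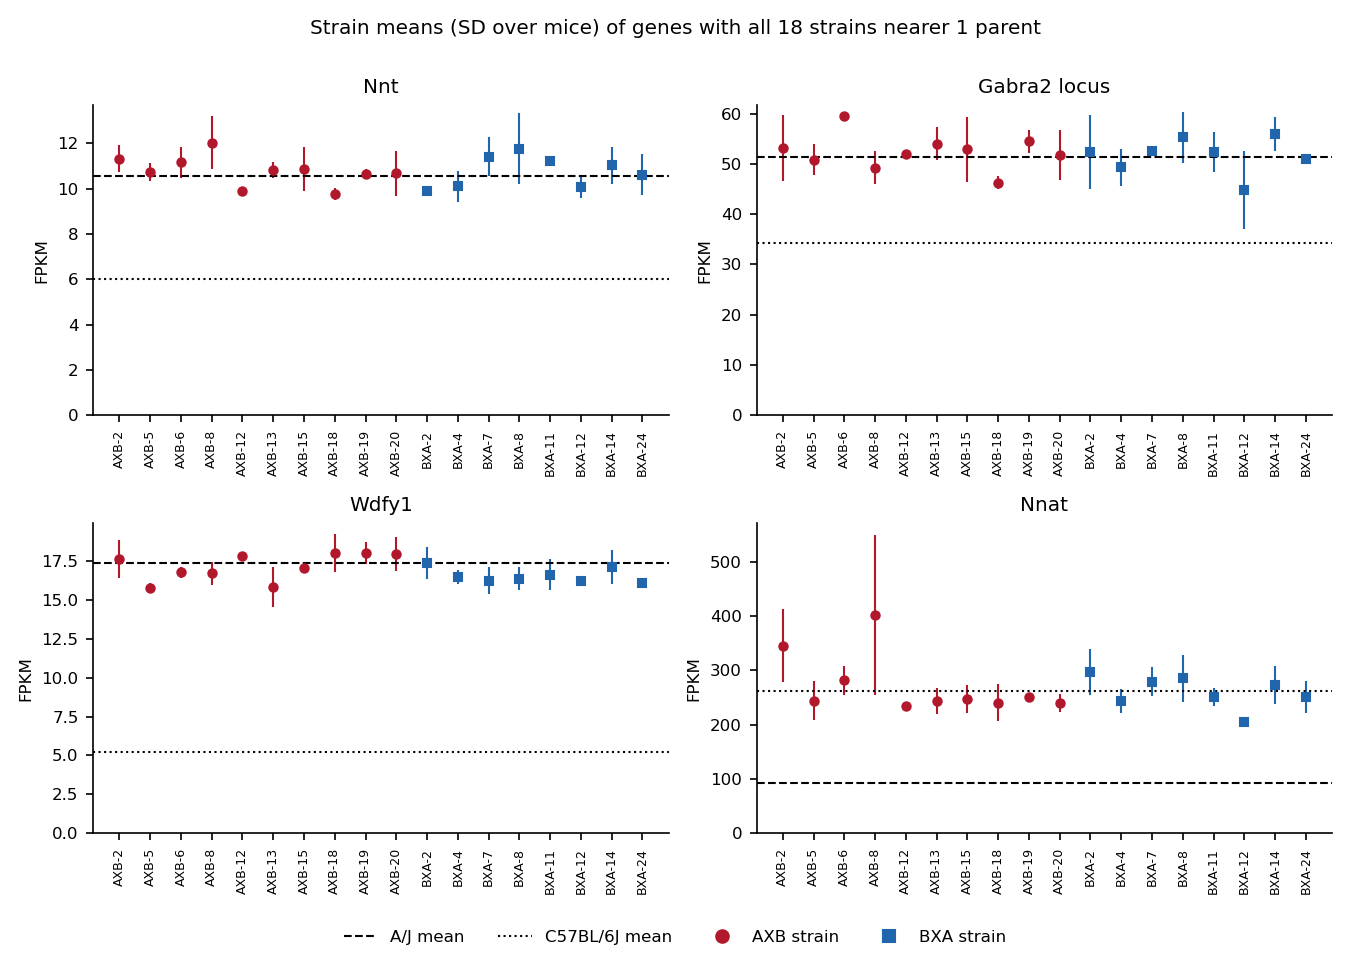
Mean FPKM of each of 18 strains for Nnt, the Gabra2 locus, Wdfy1 and Nnat, with the SD over the mice of a strain as bars and the parental means as lines. All 18 strains lie on the A/J side in the first 3 panels and at or above 204.3 FPKM, far from A/J, for Nnat.

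Glo1, which encodes glyoxalase 1 and is duplicated in some inbred strains, segregated in both crosses. Its strain means ran from 33.1 to 101.2 FPKM in AXB and from 31.9 to 148.1 FPKM in BXA, with 6 of 10 and 2 of 8 strains nearer A/J, and the difference of 0.48 had an SE of 0.33. Btbd9, its neighbour, had a difference of 0.15.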

How the data were processed

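Whole hypothalamus of 282 male mice was sequenced as unstranded RNA libraries. Per the labels and methods, the authors mapped reads to the mm10 build (STAR 2.3.1), built transcripts strain by strain (Cufflinks 2.2.0), joined these to GENCODE annotation and deposited gene FPKM values from Cuffnorm 2.2.1. Those values hold no counts, so the depth is unknown from them and their precision is judged from the spread between strains. The authors give mapped reads and the percentage uniquely mapped for each mouse. These were covariates in 1 alternative, which also called 0 genes between the crosses. Here log2(FPKM + 1) was averaged over the mice of a strain, and 10 AXB were compared with 8 BXA strains with limma 3.58.1 in R 4.3.3, Benjamini-Hochberg adjusted over 12073 autosomal genes at a threshold of 0.05. An exact 2-sided permutation test over strains was the second test, and scripts were tested on simulated data. Rows without a deposited transcript (1555), on X (445) or on Y (6) were left out, and 0 columns of values went unused. Parents were compared in 1 limma fit over the mice of all strains. A strain counted as nearer A/J when its mean lay on the A/J side of the parental midpoint on the log2 scale. Named were the 10 loci of 1 named gene with the lowest p in each direction, the 2 members with the lowest p of each list and genes with known parental variants; others are marked as named after values were seen, and some genes are not reported here. Strains and lists were chosen with earlier results of these data known. The p-values measure the spread between these strains.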

Additional observations from a re-analysis of the deposited data

Results flagged for a closer look

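Of 94 sets of strain means examined, 10 held a strain whose gap to its nearest neighbour, divided by the range of its cross, passed Dixon's 95% value. Chance flags about 1 in 20 sets. In AXB-8, Nsa2 had 7.34 FPKM where the other AXB strains had 3.05 to 3.91, Gfm2 had 9.92 FPKM where the others had 13.4 to 16.1, and Gm9828 had 1.73 FPKM where the others had 2.54 to 3.41. In BXA-14, Gm9828 had 3.43 FPKM against 1.54 to 2.07 in the other BXA strains. XLOC_036111 had 1.66 FPKM in BXA-11 against 0.525 to 1.04 in the other BXA strains. Glul had 517.3 FPKM in BXA-24 against 394.2 to 448.8 in the others, and Bcl6 had 6.11 FPKM in BXA-12 against 7.64 to 9.002. Klf9 had 41.1 FPKM in AXB-19 against 33.0 to 36.9 in the other AXB strains. Afg3l1 had 18.2 FPKM in AXB-13 against 8.21 to 11.1. Glo1 had 148.1 FPKM in BXA-12 against 31.9 to 64.4 in the other BXA strains.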

How the results depend on the processing

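The count of 0 genes between AXB and BXA strains held under 29 of 33 alternatives. The 0 of the exact permutation test adds no support to this, for the reason given above. Leaving out 1 strain gave 0 to 2 genes, with 2 (Nsa2 and Gfm2) without AXB-8, 1 (Nsa2) without BXA-14 and 1 (XLOC_036111) without BXA-11, and 0 to 2 among the genes named by rule. With mice as samples and strain as a random effect, at 1 correlation of 0.257 for all genes, 23 genes were called, 14 higher in BXA and 9 in AXB, and 8 of those named by rule. The share of variance between strains ran from 4.59% to 92.4% over these 23 genes, with a median of 68.5%, so 1 correlation understates it for most of them. Genes at an unadjusted p under 0.05 numbered 445 to 702. The difference in the share of genes nearer A/J was 5.13 to 9.31 percentage points (5.24 to 9.31 with 1 strain left out). Its exact permutation p ran from 0.0199 to 0.186. It passed the threshold without AXB-13 (8.30) and without BXA-12 (9.31). These are the lowest AXB and the highest BXA strain in this share, so this adds no support for a difference. The number of genes that differ between the parents fell to between 460 and 564 when 1 replicate was left out, which leaves 2 mice per parent. Signs reversed in 4 of 1386 values of single genes: Sdhc at -0.034 without replicate 1, -0.00054 without AXB-2 and -0.00340 without BXA-4 (highest with 1 strain or replicate left out 0.059), and Nkx2-1 at -0.0033 without replicate 1 (highest 0.16). The 2 alternatives that left out mice rich in pituitary or choroid plexus markers were added after the data were seen. No paired analysis was possible because strains were compared as means and replicate numbers, given in accession order, pair no AXB with a BXA strain.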

Other observations

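The mouse titled AXB8 but labelled as strain AXB-6, which entered no comparison, lay on the same parental side as the 2 AXB-8 mice for 91.9% of the 185 genes that differ between the parents, and as the 2 AXB-6 mice for 47.3%. With every other strain it shared at most 61.6%. It was not assigned to a strain.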
